A study of Homo sapiens with 19 samples.

Results

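Prostaglandin E2 is made in 3 steps, and the genes described here encode the enzymes of those steps, the enzyme that ends the signal and 2 receptors that receive it. They are PLA2G4A, PTGS1, PTGS2, PTGES, PTGES3, PTGER2, PTGER4 and HPGD, 8 of the 11945 genes named by the probe sets of the array. They were chosen by name, with earlier results of these data known. Every probe set annotated to 1 of these genes alone was used, 15 of 22283 in all. Messenger RNA had been measured on 19 Affymetrix arrays, 1 for each of 19 cultured lines, all of them MDA-MB-231 human breast cancer cells or their descendants. The groups were the parental line (1 array), weakly bone-metastatic lines (2293, 2295 and 2296), strongly bone-metastatic lines (1833, 2274, 2268 and 2269), weakly lung-metastatic lines (SCP21, SCP6 and SCP26), strongly lung-metastatic lines (4142, 4173, 4175 and 4180), modal-ploid sublines of 1833 and 4175, and hyper-ploid sublines of 1833 and 4175. The series asks how a doubling of DNA content relates to metastasis. All lines had grown in serum-containing medium with selective drugs where needed and were harvested before confluence, with no treatment named. Each line is 1 array, so the spread within a group is the spread between different lines, and no line has a repeat. Lines 1833 and 4175 are, by the design text, the original sublines after brief culture. The labels do not give a measured DNA content for each line or how the other lines were derived, and line 2296 is called 2297 in another of its labels.

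In the arachidonic acid cascade, cytosolic phospholipase A2 (PLA2G4A) releases arachidonic acid from membrane phospholipids. The cyclooxygenases, constitutive PTGS1 and inducible PTGS2 (COX-2), turn it into prostaglandin H2, and prostaglandin E synthases (PTGES, membrane-bound and inducible, and PTGES3, the cytosolic enzyme also known as the HSP90 co-chaperone p23) turn that into prostaglandin E2. Prostaglandin E2 acts on receptors of which EP2 (PTGER2) and EP4 (PTGER4) raise cyclic AMP, and 15-hydroxyprostaglandin dehydrogenase (HPGD) inactivates it. PTGS2 is widely studied in breast cancer as an inflammatory gene and as a gene linked with spread to lung and brain.

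PTGS2 and PLA2G4A were the members that differed between strongly and weakly lung-metastatic lines, and on chromosome 1 they are neighbours: 1 gene, the long noncoding RNA PACERR, and 0 protein-coding genes are listed between them in RefSeq. Their promoters are shown because the 2 genes moved together across the arrays. The sequences are the 250 bases before each gene's listed start in RefSeq (GRCh38.p14), written 5′ to 3′ on the gene's own strand. PTGS2 lies on the minus strand, at chr1:186680424-186680673, and PLA2G4A on the plus strand, at chr1:186828699-186828948. Capitals mark matches to 5 short motifs.
PTGS2: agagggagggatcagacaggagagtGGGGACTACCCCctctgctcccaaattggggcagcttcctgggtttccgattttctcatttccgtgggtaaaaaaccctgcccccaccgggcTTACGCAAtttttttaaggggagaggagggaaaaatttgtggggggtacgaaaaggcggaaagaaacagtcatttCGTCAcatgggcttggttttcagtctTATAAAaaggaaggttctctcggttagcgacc
PLA2G4A: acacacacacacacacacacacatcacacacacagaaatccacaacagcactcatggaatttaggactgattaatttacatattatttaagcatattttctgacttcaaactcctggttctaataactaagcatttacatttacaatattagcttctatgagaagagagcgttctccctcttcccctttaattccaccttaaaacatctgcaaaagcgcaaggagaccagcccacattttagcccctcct
Reading from its 5′ end, the PTGS2 window holds an NF-kB-like stretch 225 to 214 bases before the start, a C/EBP-like site 133 to 126 bases before it, a short cyclic AMP response motif at 58 to 54 and a TATA box at 32 to 27. Both strands were searched. The NF-kB-like motif was GGG, any 5 bases and then CC, with 4 overlapping matches, the one at 224 to 215 counted on each strand. The C/EBP-like motif was TTNNGNAA, with 1 site, which matches on both strands. The cyclic AMP response motif was CGTCA. The TATA box was searched as TATAAA, and AP-1, which had no match, as TGANTCA. The PLA2G4A window holds none of the 5. Over 35116 promoter windows of the same length, 54.4% held the NF-kB-like letters, 33.2% the C/EBP-like letters, 21.2% the cyclic AMP response motif, 10.7% the TATA box and 6.57% the AP-1 letters. A match describes the letters only, and no match says only that the letters are not in this window.

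Of the 8 genes, 7 had a probe set that exceeded the 40th percentile of its array 2 or more times among 19, and these entered the tests within a set of 9541 genes. The number of arrays on which the gene's chosen probe set passed that percentile was 19 for PTGS1, PTGES and PTGES3, 17 for PTGER4, 14 for PTGS2, 6 for PLA2G4A and 2 for HPGD. PTGER2 passed on 1 array and was not tested. PLA2G4A and HPGD passed through the groups in which they were high, so the count of members tested is no support for a difference. Values below are signals scaled to a common array median, and differences are on the log2(signal + 16) scale with standard errors and adjusted p-values from limma over the 9541 genes. This scale understates the change of a dim gene. Signals of different genes come from different probes and are not set against each other.

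**Figure D1:**
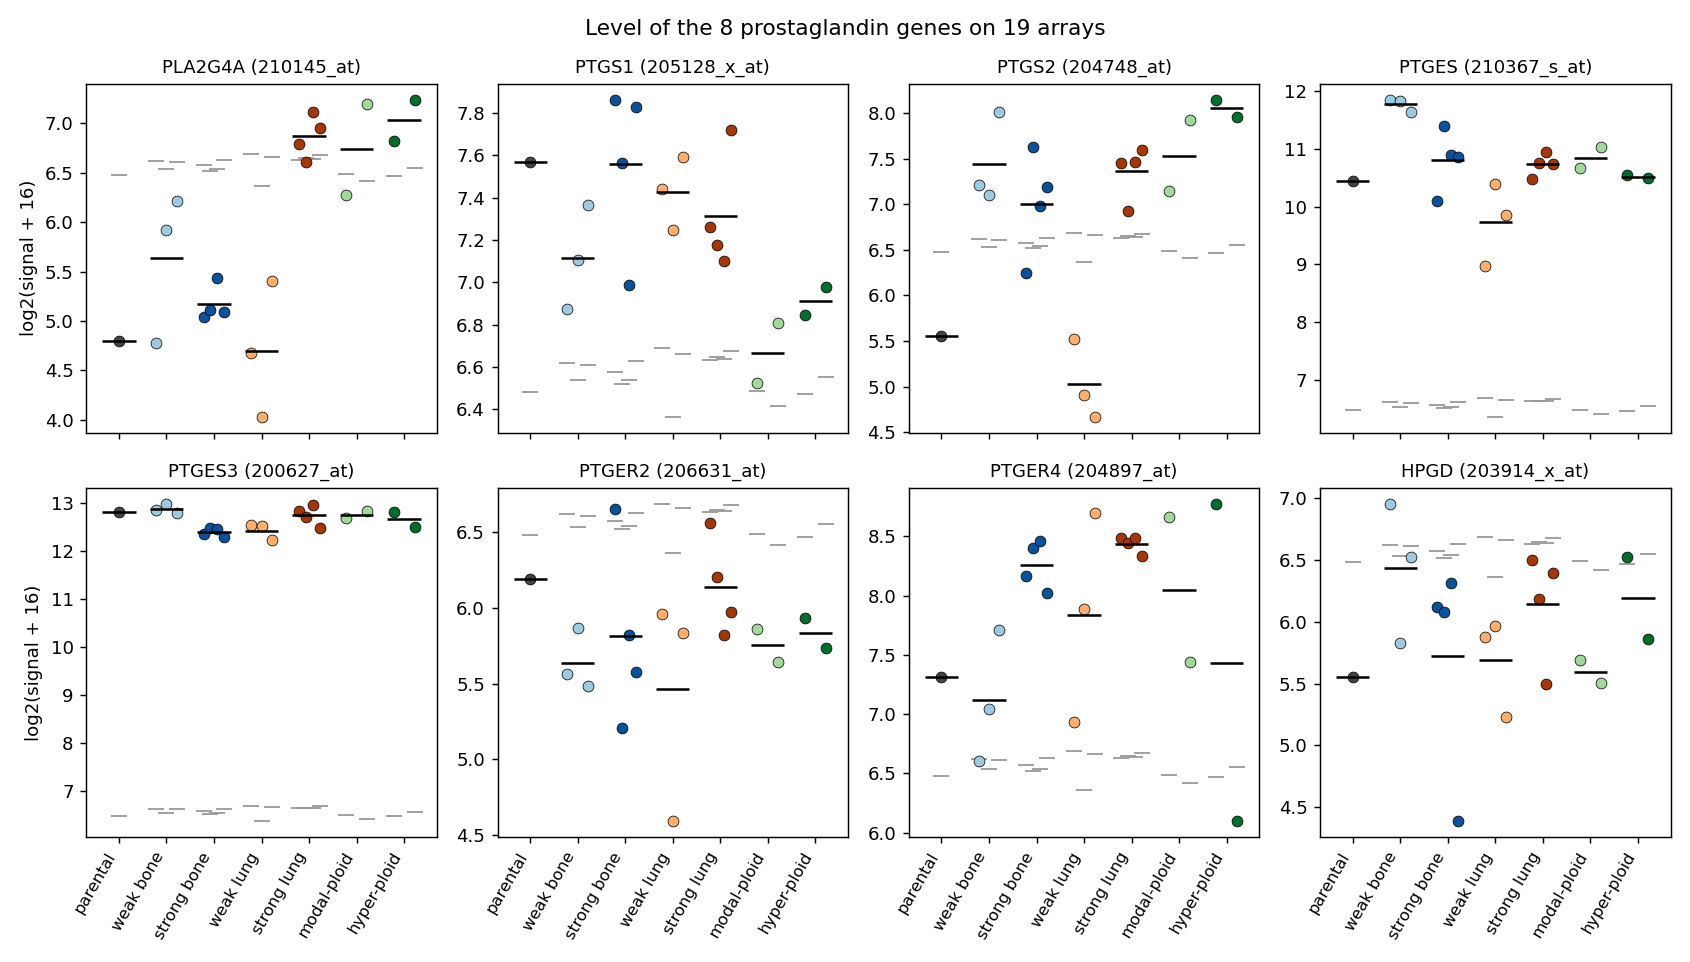
Each panel plots 1 gene: the vertical axis is its level as log2(signal + 16), the horizontal axis the 7 groups, each point 1 array, each black line a group mean and each short grey line that array's 40th percentile. PTGS2 and PLA2G4A sit lower on all 3 weak lung arrays than on all 4 strong lung arrays, the PTGES differences of the 2 organs have opposite signs, and PTGER2 stays below the grey lines on all arrays but 1.

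PTGS2 was near the bottom of its range in the weak lung lines and the parental line and higher everywhere else. Its signal was 29.9 in SCP21, 14.02 in SCP6 and 9.41 in SCP26, against 159.2 in 4142, 105.7 in 4173, 160.8 in 4175 and 178.1 in 4180. The weak and strong lung lines did not overlap, and none of the 3 weak lines passed its array's 40th percentile while all 4 strong lines did. The group means were 17.8 ± 10.7 (SD, n = 3) and 151 ± 31.4 (SD, n = 4). PTGS2 was higher in strong lung lines by 2.33 on the log2 scale (SE 0.32, adjusted p = 0.000685), at least 1.73-fold when the weak lines are set at their 40th percentile. By size this was rank 60 of the 9541 genes. On the deposited ratios, which were compared within the lung arrays, the weak lines lay between 0.0712 and 0.226 and the strong lines between 0.80 and 1.34. The log2 difference was 3.23 on those ratios and 1.39 with 64 in place of 16 added to the signal, and it kept its call under both.

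The bone lines gave no such split of PTGS2. Its signal was 132.0 in 2293, 121.2 in 2295 and 243.0 in 2296, the weak lines, and 59.8 in 1833, 181.4 in 2274, 110.0 in 2268 and 129.7 in 2269, the strong lines. These groups overlapped, with means of 165 ± 67.4 (SD, n = 3) and 120 ± 50.3 (SD, n = 4). The log2 difference was -0.43 (SE 0.32, adjusted p = 0.439). The difference between the lung and the bone difference was itself past the threshold, at 2.76 (SE 0.46, adjusted p = 0.00180), and was 1.71 with 64 added to the signal. The parental line had a signal of 31.1, below all 7 bone lines of its array set. Set in order, the group means of PTGS2 were 249.96 in hyper-ploid sublines, 176 in modal-ploid sublines, 165 in weak bone, 151 in strong lung and 120 in strong bone lines, then 31.1 in the parental line and 17.8 in weak lung lines. Neighbours among the first 5 groups overlapped in their single values except hyper-ploid and modal-ploid, whose values lay at 231.9 to 268.1 and 125.5 to 226.3, and strong bone did not overlap the parental line. The parental value lay just above the highest weak lung value, 29.9, which comes from the other array set. Array handling and group cannot be told apart across array sets or between ploidy and other arrays. The order of the means is a description only. In bulk RNA, fewer expressing cells and less RNA per cell cannot be told apart.

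PLA2G4A, the phospholipase that feeds the cyclooxygenases, showed the same split of the lung lines. Its signal was 9.48 in SCP21, 0.324 in SCP6 and 26.3 in SCP26, and 94.7 in 4142, 81.7 in 4173, 122.4 in 4175 and 108.2 in 4180. The groups did not overlap. None of the weak lines and 3 of the 4 strong lines passed their 40th percentile. The log2 difference was 2.17 (SE 0.34, adjusted p = 0.00129), at least 1.23-fold. It was 4.54 on the deposited ratios, in which SCP6 stands at 0.00366, and 1.13 with 64 added, past the threshold both times. In the bone lines the signal was 11.4 in 2293, 44.5 in 2295 and 58.5 in 2296, against 16.8 in 1833, 18.6 in 2274, 27.3 in 2268 and 18.1 in 2269. All 7 were below their 40th percentile, and the groups overlapped (log2 difference -0.47, SE 0.34, adjusted p = 0.418). The lung difference exceeded the bone difference by 2.64 (SE 0.48, adjusted p = 0.00306), which was 5.18 on the ratios and 1.38 with 64 added. The parental line had a signal of 11.9.

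**Figure D2:**
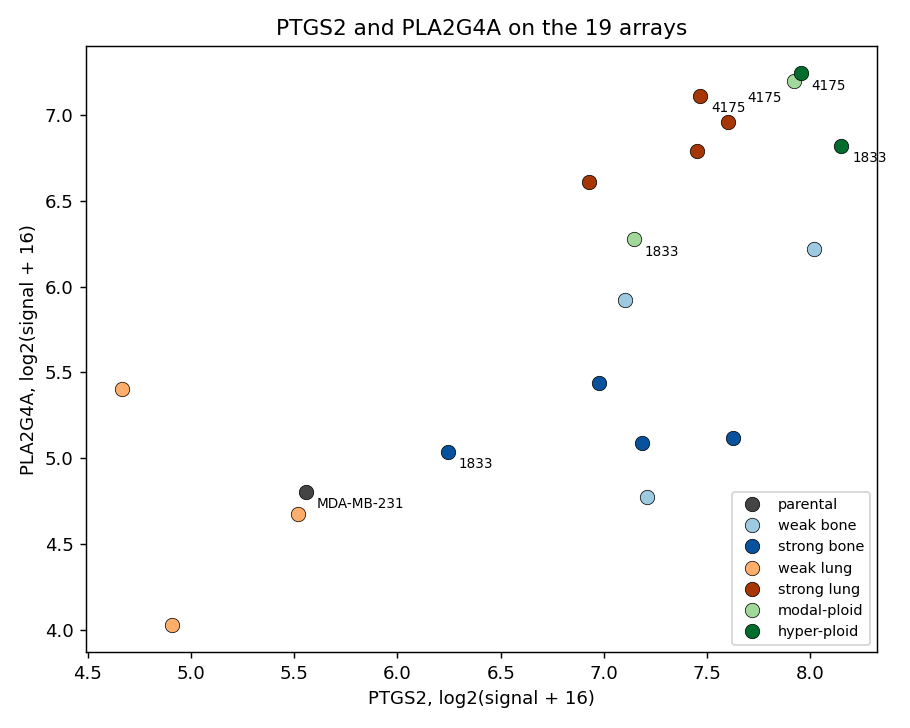
Each point is 1 of the 19 arrays, with PTGS2 on the horizontal and PLA2G4A on the vertical axis, both as log2(signal + 16), coloured by group; the parental line and the arrays of 1833 and 4175 are named. The 4 strong lung arrays, the hyper-ploid arrays and the modal-ploid array of 4175 lie at the upper right. The parental and weak lung arrays lie at the left. On the PLA2G4A axis the 7 bone lines lie below all 4 strong lung lines, as does the modal-ploid array of 1833 (6.28), beside bone line 2296 (6.22).

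Across the 19 arrays, after the mean of each array set was taken out, PTGS2 and PLA2G4A had a Pearson correlation of 0.849, with 0.654 over the 10 arrays of the parental, 1833 ploidy and bone lines and 0.925 over the 9 arrays of the 4175 ploidy and lung lines. These arrays share their groups, so the correlation is a description of the group pattern as well. PLA2G4A was among the 5 genes of 9540 with the highest such correlation with PTGS2. The others were SERPINE2, a secreted serine protease inhibitor (0.871), IFT46, a part of the intraflagellar transport machinery (0.871), CCDC91 (0.852) and the transcription factor TFAP2C (0.851). They were chosen for their correlation over these same arrays, so their group differences are a description only. SERPINE2 had a mean signal of 343 in weak and 2109 in strong lung lines, a log2 difference of 2.63, and one of -0.75 in bone lines. The lung differences of the other 3 were 1.48 for TFAP2C, 0.83 for CCDC91 and 0.61 for IFT46. With the other members PTGS2 had correlations of 0.579 (PTGES), 0.414 (PTGES3), 0.279 (HPGD), -0.0250 (PTGER4) and -0.382 (PTGS1).

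PTGS1, the constitutive cyclooxygenase, showed no difference past the threshold in any comparison. The signal of its chosen probe set (205128_x_at) was 101.3, 121.6 and 148.9 in weak bone lines 2293, 2295 and 2296, and 216.8, 173.1, 110.9 and 211.0 in strong bone lines 1833, 2274, 2268 and 2269. The groups overlapped through line 2268, the log2 difference being 0.45 (SE 0.23, adjusted p = 0.238). In lung lines it was 157.7, 135.9 and 176.7 in SCP21, SCP6 and SCP26, and 137.2, 128.7, 121.2 and 194.8 in 4142, 4173, 4175 and 4180. Here the difference was -0.11 (SE 0.23, adjusted p = 0.823), and it turned to 0.0847 when the gene's kept probe sets were averaged. The parental line was at 173.5. Another kept probe set of PTGS1 (215813_s_at) correlated with this one at 0.423 over 19 arrays and gave differences of 0.11 in bone and 0.28 in lung lines. A further PTGS1 probe set (205127_at) did not pass the 40th percentile on any of the 19 arrays. It correlated with the chosen one at 0.299 and with 215813_s_at at 0.0946, so the probe sets of PTGS1 do not give the same level or pattern. On their chosen probe sets both cyclooxygenase genes were measured above the 40th percentile in strong lung lines. The one that separated strong from weak was PTGS2. The difference between PTGS2 and PTGS1 in their response was not tested.

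PTGES, the inducible prostaglandin E synthase, had differences of opposite sign in the 2 organs. Its signal (210367_s_at) was 3673 in 2293, 3629 in 2295 and 3149 in 2296, and 1081 in 1833, 2669 in 2274, 1883 in 2268 and 1842 in 2269. Every weak bone line lay above every strong one, with means of 3484 ± 291 (SD, n = 3) and 1869 ± 649 (SD, n = 4). The log2 difference of -0.96 (SE 0.32) missed the threshold, with an adjusted p of 0.0657. In lung lines it was 487.6 in SCP21, 1331 in SCP6 and 903.9 in SCP26, and 1407 in 4142, 1716 in 4173, 1954 in 4175 and 1693 in 4180. Every strong lung line lay above every weak one, with means of 1693 ± 224 (SD, n = 4) and 907 ± 422 (SD, n = 3). This difference of 0.99 (SE 0.32) also missed, with an adjusted p of 0.0688. The lung difference exceeded the bone difference by 1.95 (SE 0.45, adjusted p = 0.0129), which tests that the 2 are unequal and not that their signs are opposite. Each single difference passed with 64 added to the signal, with the stricter filter, with quantile normalisation and with scaling to a trimmed mean. The bone difference passed without line 2274 (adjusted p = 0.0440) and the lung difference without SCP6 (adjusted p = 0.0247). Without SCP21 the lung difference was 0.61, with an adjusted p of 0.241, and the other omissions of a bone line gave adjusted p-values of up to 0.168. With probe sets averaged the adjusted p was 0.140 in bone and 0.130 in lung lines. The other probe set of PTGES (207388_s_at) correlated with the first at 0.850 and had the same signs, -0.43 in bone lines (SE 0.28, adjusted p = 0.364) and 0.51 in lung lines (SE 0.28, adjusted p = 0.313, over 16235 probe sets). Its interaction of 0.94 (SE 0.40) had an adjusted p of 0.153. The parental line had 1369 on the first and 1230 on the other.

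PTGES3, the HSP90 co-chaperone with prostaglandin E synthase activity, had the same pair of signs with smaller differences. Its signal was 7389, 8130 and 7081 in weak bone lines 2293, 2295 and 2296 and 5258, 5755, 5669 and 4996 in strong bone lines 1833, 2274, 2268 and 2269. The bone groups did not overlap, and the log2 difference was -0.47 (SE 0.16, adjusted p = 0.0691). That difference passed with the stricter filter (0.0421), with quantile normalisation (0.0123) and with scaling to a trimmed mean (0.0106). In lung lines the signal was 5952, 5870 and 4788 in SCP21, SCP6 and SCP26 and 7274, 6748, 7946 and 5758 in 4142, 4173, 4175 and 4180. These overlapped through line 4180, with a difference of 0.32 (SE 0.16, adjusted p = 0.247). The lung difference exceeded the bone difference by 0.79 (SE 0.22, adjusted p = 0.0346). That call was lost on leaving out any 1 of 2293, 2295, 2296, 1833, 2274, SCP26, 4142, 4173 or 4175, with an adjusted p of up to 0.0906. The parental line had a signal of 7222.

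**Figure D3:**
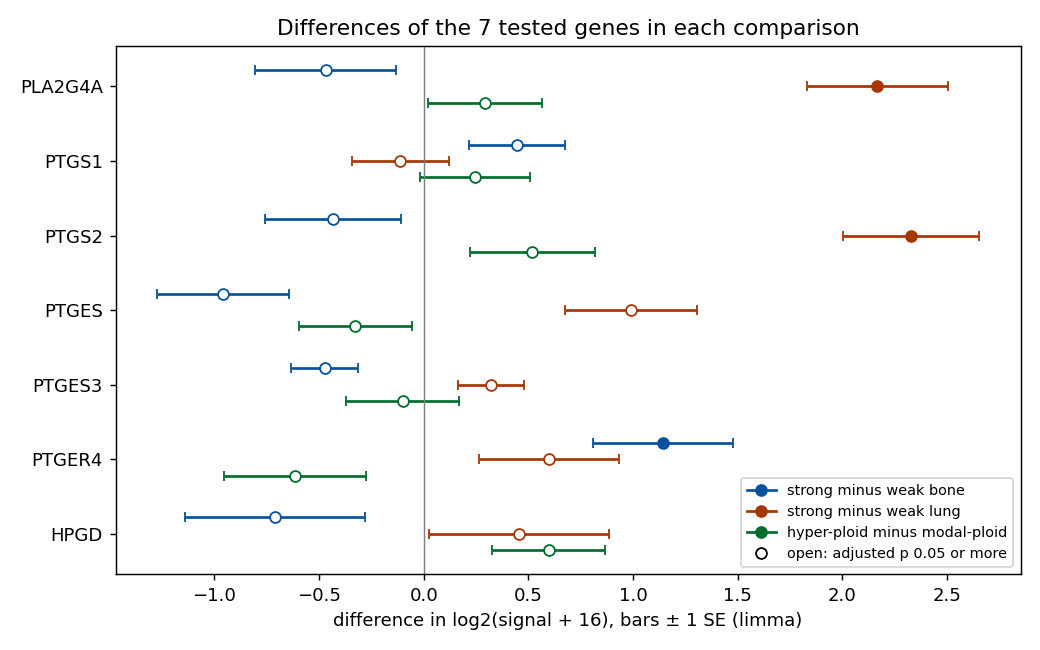
Points are log2 differences of the 7 tested genes, with bars of ± 1 SE from limma, for strong minus weak bone lines, strong minus weak lung lines and hyper-ploid minus modal-ploid sublines; filled points have an adjusted p under 0.05. Filled points are PTGS2 (2.33) and PLA2G4A (2.17) in lung lines and PTGER4 (1.14) in bone lines.

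PTGER4, the EP4 receptor, was the member that differed between strong and weak bone lines. Its signal (204897_at) was 81.2 in 2293, 115.7 in 2295 and 193.0 in 2296, and 270.6 in 1833, 321.5 in 2274, 336.4 in 2268 and 243.5 in 2269. Every strong line lay above every weak line, with means of 293 ± 43.4 (SD, n = 4) and 130 ± 57.3 (SD, n = 3), and the parental line, at 143.1, lay among the weak ones. PTGER4 was higher by 1.14 on the log2 scale (SE 0.34, adjusted p = 0.0415). The call was lost without 2293 (0.176), 2295 (0.113), 1833 (0.0740), 2274 (0.0912) or 2268 (0.0916), on the deposited ratios (0.0512), without a filter (0.0548), with quantile normalisation (0.0516) and with scaling to a trimmed mean (0.0585). Its other probe set (204896_s_at), above the 40th percentile on 1 of the 7 bone arrays, had signals of 11.7 to 19.7 in weak and 21.5 to 117.8 in strong bone lines and a difference of 1.03 (SE 0.34, adjusted p = 0.0714).

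Among lung lines PTGER4 spread over a wide range in the weak group. The signal was 106.6 in SCP21, 220.8 in SCP6 and 399.2 in SCP26, against 343.0, 333.1, 343.1 and 306.4 in 4142, 4173, 4175 and 4180. The 4 strong lines lay within a narrow band (331 ± 17.3, SD, n = 4), and SCP26 lay above them all. The log2 difference was 0.60 (SE 0.34, adjusted p = 0.311), with 0.15 without SCP21 (adjusted p = 0.809) and 1.03 without SCP26 (adjusted p = 0.0474). The lung and bone differences of PTGER4 were not shown to differ (-0.55, SE 0.47, adjusted p = 0.508).

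PTGER2, the EP2 receptor, passed the 40th percentile on 1 array, that of strong bone line 1833, with a signal of 84.4. Elsewhere it ranged from 28.7 to 42.3 in weak bone, 21.0 to 40.6 in the other strong bone, 8.09 to 46.2 in weak lung and 40.5 to 78.2 in strong lung lines. In a fit without the filter its log2 differences were 0.18 in bone (SE 0.36) and 0.68 in lung lines (SE 0.36), with adjusted p-values of 0.844 and 0.373. A difference was not detected.

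HPGD, which breaks prostaglandin E2 down, was dim on all 4 of its probe sets. The kept one (203914_x_at) had signals of 108.1, 40.8 and 76.2 in weak bone lines 2293, 2295 and 2296 and 53.5, 51.7, 63.7 and 4.93 in strong bone lines 1833, 2274, 2268 and 2269. The groups overlapped, the log2 difference being -0.71 (SE 0.43, adjusted p = 0.318), or -0.26 without line 2269 (adjusted p = 0.641). In lung lines the signals were 42.7, 46.4 and 21.4 in SCP21, SCP6 and SCP26 and 74.4, 56.9, 29.1 and 68.1 in 4142, 4173, 4175 and 4180, with a difference of 0.46 (SE 0.43, adjusted p = 0.574), or 0.22 without SCP26 (adjusted p = 0.809). The 4 probe sets had correlations of -0.106 to 0.336 with each other over 19 arrays, so they do not give 1 pattern for the gene. Of the other 3, probe set 211548_s_at had the most distant value in bone lines, -1.31 (SE 0.43, adjusted p = 0.0941), in a limma fit without the filter. Its bone groups did not overlap, with 1 weak and 0 strong arrays above the 40th percentile. In that fit 203913_s_at gave 0.72 in lung lines (SE 0.38, adjusted p = 0.365), without overlap and with 0 lung line arrays above the percentile. Of all tested genes, 27.4% did not overlap in bone and 19.8% in lung lines.

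**Figure D4:**
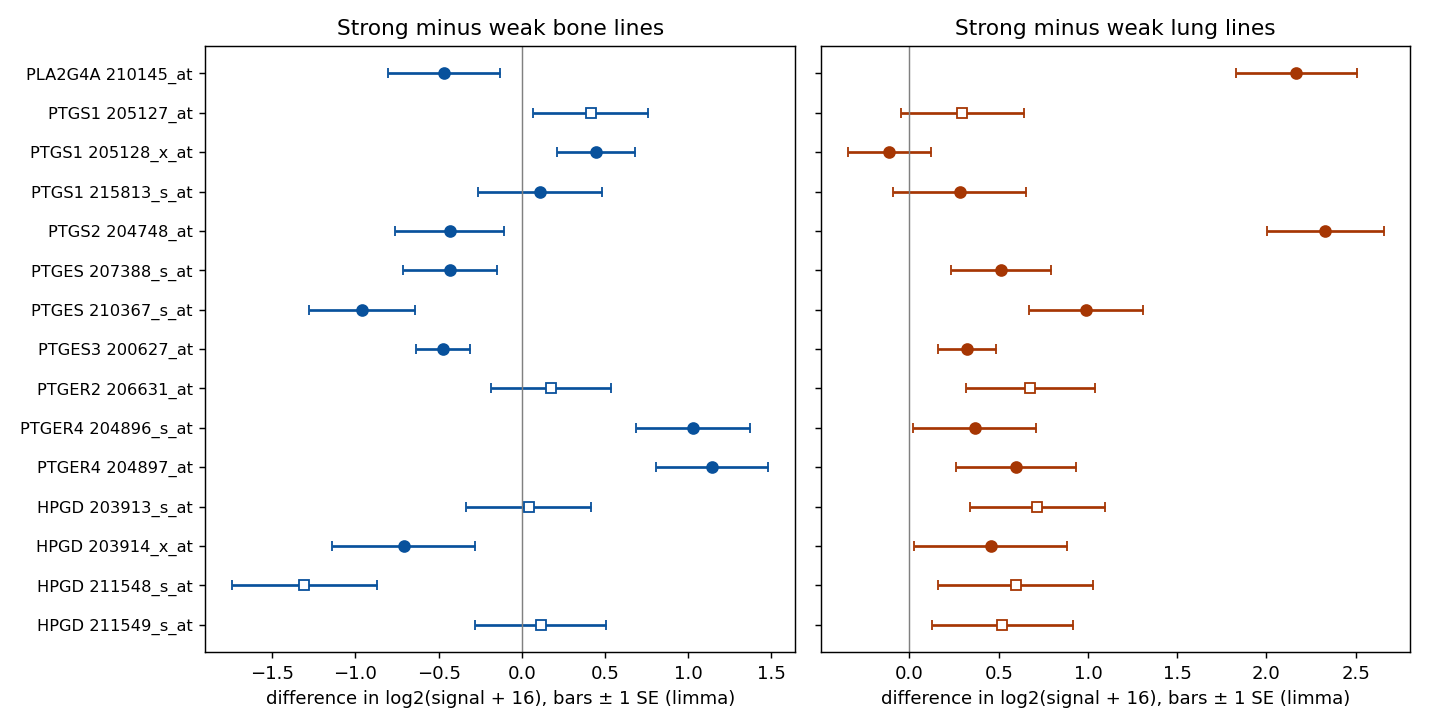
Log2 differences, with bars of ± 1 SE from limma, for all 15 probe sets of the 8 genes in bone lines (left) and lung lines (right); filled circles passed the filter on dim probe sets and open squares come from a fit without it. The pairs of PTGES and PTGER4 probe sets have like signs in each panel, while those of PTGS1 differ in sign in lung lines and those of HPGD in bone lines.

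Counted together, 1 of the 7 tested members passed the threshold in bone lines, where 11.4% of all tested genes did, and 2 of 7 in lung lines, where 8.65% did. Both lung calls were higher in strong lines, as were 3.32% of all genes. The difference between the organs passed for 4 of 7 (PTGS2, PLA2G4A, PTGES and PTGES3), all with the signed difference higher in lung than in bone lines, against 11.7% of all genes in either direction and 4.76% in this one. In bone lines 3 members had groups that did not overlap (PTGES, PTGES3 and PTGER4), as did 27.4% of all genes, and in lung lines 3 (PTGS2, PLA2G4A and PTGES), as did 19.8%. The median log2 difference of the 7 was -0.47 in bone and 0.60 in lung lines, beside 0.01 and -0.01 over all genes. Scaling by a trimmed mean moved the median interaction of all genes by 0.14, and the 4 calls were unchanged by it. The members were chosen with earlier results of these data known, and PLA2G4A passed the filter through the groups in which it was high. These counts are therefore a description and no support for an enrichment.

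Hyper-ploid and modal-ploid sublines were compared in 2 pairs, 1 from each line of origin. None of the 7 members passed the limma threshold, where 1 gene of 9541 (0.0105%) passed in all. An unadjusted p under 0.05 was found for 1 member, HPGD (log2 difference 0.60), and for 507 of the 9541 genes. The HPGD probe set (203914_x_at) passed the 40th percentile on 1 hyper-ploid and 0 modal-ploid arrays. In a fit without the filter the other HPGD probe sets gave -0.09, -0.19 and 0.26. In sublines of 1833 PTGS2 had a signal of 125.5 (modal-ploid) and 268.1 (hyper-ploid), a difference of 1.01, and in those of 4175 it had 226.3 and 231.9, a difference of 0.03. The 1833 pair thus gave nearly all of the mean difference of 0.52 (SE 0.30, adjusted p = 0.9996). PLA2G4A had 61.5 and 97.0 in the 1833 pair and 131.0 and 135.4 in the 4175 pair, differences of 0.55 and 0.04. PTGER4 had 389.8 and 422.2 in the 1833 pair and 157.4 and 52.4 in the 4175 pair. On the chosen probe set the 2 pairs differed in sign for PTGER4, 0.11 against -1.34. The other kept PTGER4 probe set (204896_s_at) was higher in the hyper-ploid subline of both pairs, by 1.06 (1833) and 0.13 (4175). It passed the 40th percentile on 1 hyper-ploid and 0 modal-ploid arrays. Its ploidy difference was 0.59, against -0.62 for the chosen one, so the kept probe sets of PTGER4 differed in sign. PTGES had 1607 and 1478 in the 1833 pair and 2065 and 1421 in the 4175 pair, PTGES3 6637 and 7220 in the first and 7285 and 5822 in the second, and PTGS1 76.1 and 98.98 in the first and 96.0 and 110.0 in the second. On the chosen probe sets modal-ploid and hyper-ploid did not overlap for PTGS2, PTGS1, PTGES and HPGD, 4 of 7, against 22.5% of all genes. The other kept PTGS1 probe set (215813_s_at) did overlap, with a difference of -0.15 against 0.24 for the chosen one, and HPGD was dim.

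Set beside their lines of origin, both 1833 sublines had more PTGS2 signal (125.5 and 268.1) than line 1833 itself (59.8), and more PLA2G4A signal (61.5 and 97.0 against 16.8). The 4175 sublines had PTGS2 at 226.3 and 231.9 against 160.8 in line 4175, and PTGER4 at 157.4 and 52.4 against 343.1. Each of these is 1 array against 1. Before scaling, the 4 ploidy arrays had a trimmed mean signal of 310 to 346 where the other 15 had 475 to 479, and their spike-in controls averaged 9.31 to 9.56 on the log2 scale against 11.1 to 11.5 for parental and bone lines and 9.99 to 10.8 for lung lines. Array handling and the step from line to subline cannot be told apart here, nor can array handling and target organ when bone levels are set beside lung levels. The strong and weak lines of an organ lie within 1 of these ranges.

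As a check of the labelled line, 9 of 9 measured genes that mark MDA-MB-231 (CD44, KRT18, AXL and others) were above the 40th percentile on all 19 arrays, while of 7 genes listed as dim in it PGR passed on 0, CDH1 on 1 and FOXA1 on 3. The other 4 went against that, ESR1 passing on 16 arrays and ERBB2, EPCAM and GATA3 on 19. Among 9 measured leukocyte genes, PTPRC and LYZ passed on 0 arrays, CORO1A on 2, CD3D on 7, CD14 on 14, HCLS1 on 15, ITGB2 on 17, and CD53 and LAPTM5 on 19. The summed leukocyte signal was 7484 to 7799 in weak bone, 2569 to 3717 in strong bone, 1595 to 2285 in weak lung and 5930 to 6611 in strong lung lines, most of it LAPTM5 (898 to 6656), and so it moved with the groups in the same directions as PTGES. Among endothelial and fibroblast genes, VWF, CDH5 and LUM passed on 0 arrays, PDGFRB on 1, KDR on 2, TEK on 3, COL1A2 on 16, PECAM1 on 17, and COL1A1 and DCN on 19. PECAM1 differed by -1.59 in bone and 1.12 in lung lines. The lung value had a limma adjusted p of 0.0635 when its probe sets were averaged and 0.0553 without SCP6. Mast cell genes had summed signals of 399 to 566 in weak bone, 316 to 457 in strong bone, 173 to 588 in weak lung and 546 to 630 in strong lung lines, with TPSB2 above the percentile on 0 arrays. The 3′ minus 5′ log2 ratio of GAPDH, which follows RNA quality, was -0.13 to 0.35 in weak and -0.09 to 0.12 in strong lung lines, and that of ACTB 0.09 to 0.40 in weak and -0.01 to 0.19 in strong lung lines. SCP21 and SCP26 lay above every strong lung line on both genes, and SCP6 did not. On leaving out each lung line in turn, the PTGS2 difference was 2.15 to 2.57 and that of PLA2G4A 1.83 to 2.52. In bone lines GAPDH gave -0.13 to 0.04 in weak and -0.06 to 0.18 in strong lines, and ACTB -0.05 to 0.20 and -0.25 to 0.09. The part of markers and RNA quality in the members' differences was not tested.

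The rest of the pathway is given by lists, to be read against the 11.4% of all tested genes called in bone and the 8.65% called in lung lines. By direction, limma called 642 of the 9541 genes higher and 447 lower in strong bone lines, and 317 higher and 508 lower in strong lung lines. At an unadjusted p under 0.05 there were 2549 of the 9541 genes in bone and 2192 in lung lines. Among phospholipases and other enzymes of acyl release, 14 of 24 listed genes were tested. MGLL, monoacylglycerol lipase, was higher in strong bone lines (0.62, SE 0.18, adjusted p = 0.0415), and PLAA gave 0.56 without passing (adjusted p = 0.129). In strong lung lines PLAAT3, a phospholipase of the PLAAT family, was lower by a log2 difference of -1.19 (SE 0.22, adjusted p = 0.00373) and LPCAT3, which puts arachidonate into phospholipids, was higher by 0.79 (SE 0.15, adjusted p = 0.00592). The largest that did not pass was MBOAT7 (-0.64, adjusted p = 0.164). MGLL lost its call without any 1 of 2293, 2295, 2296, 1833 or 2274, with an adjusted p of up to 0.143, and without a filter or with the bone lines alone (up to 0.0553). LPCAT3 lost its lung call with its probe sets averaged or with the lung lines alone, up to 0.0777. The lung minus bone difference passed in limma for PLAAT3 (adjusted p = 0.00277) and LPCAT3 (adjusted p = 0.0149). That of LPCAT3 had an adjusted p of 0.491 with its probe sets averaged. The median over the 14 was 0.13 in bone and 0.24 in lung lines.

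Of 14 listed other synthases and reductases, 11 were tested. TBXAS1, thromboxane synthase, was lower in strong bone lines (-1.69, SE 0.50, adjusted p = 0.0415, at least 1.67-fold lower) and lost its call without any 1 of the 7 bone lines, with an adjusted p of up to 0.138, as also on the deposited ratios, with 4 added to the signal and without a filter (up to 0.0878). CBR1, a carbonyl reductase that can convert prostaglandin E2 to F2-alpha, was higher in strong bone lines (0.73, SE 0.21, adjusted p = 0.0394) and lower in strong lung lines (-0.88, SE 0.21, adjusted p = 0.0190). The signs of CBR1 were the reverse of those of PTGES, and its lung minus bone difference was -1.61 (SE 0.30, adjusted p = 0.00360). Its bone call was lost without any 1 of 2293, 2295, 2296, 1833, 2274 or 2268, up to 0.137, and without a filter or with the bone lines alone (up to 0.0812), and its lung call without SCP6 or 4173, up to 0.0737. GSTM2 was lower in strong lung lines (-0.63, SE 0.18, adjusted p = 0.0497), a call lost in 6 of 7 omissions of a lung line (all but SCP21), up to 0.158, and in 7 of the other settings, up to 0.138. PTGDS, prostaglandin D synthase, had an interaction of 2.03 (SE 0.57, adjusted p = 0.0337), lost in 8 of 14 omissions (2296, 1833, 2268, SCP21, SCP6, SCP26, 4175 or 4180), up to 0.0836, and without a filter (0.0751). Values that did not pass were 1.84 for AKR1C2 in bone (adjusted p = 0.0688) and 1.28 for PTGDS in lung lines (adjusted p = 0.0654). Over the 11 the median was 0.24 in bone and 0.02 in lung lines.

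Of 10 other prostanoid receptors listed, 5 were tested. PPARG, a nuclear receptor for fatty acid ligands, was higher in strong bone lines (1.001, SE 0.27, adjusted p = 0.0277), a call lost without any 1 of 2293, 2295, 2296, 1833, 2274 or 2268, up to 0.104. In lung lines limma called 0 of the 5, with 2 at an unadjusted p under 0.05. The largest values that did not pass were -0.41 for PTGER3 in bone lines (adjusted p = 0.368) and 0.84 for PTGDR2 in lung lines (adjusted p = 0.316). The 5 receptors had a median of 0.19 in bone and 0.18 in lung lines. Of 10 genes of transport and breakdown 4 were tested, and SLCO4A1, an organic anion transporter, was higher in strong lung lines by 2.71 (SE 0.31, adjusted p = 0.000182). Its mean signal was 640.1 in weak and 4546 in strong lung lines, and its lung minus bone difference was 2.19 (SE 0.44, adjusted p = 0.00607). ABCC4, a prostaglandin exporter, gave 1.21 in bone lines without passing (adjusted p = 0.113), where limma called 0 of the 4 and 2 had an unadjusted p under 0.05. SLCO3A1 gave -0.34 in lung lines (adjusted p = 0.671). The 4 had medians of 0.23 and -0.26.

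The lipoxygenase branch, which turns the same arachidonic acid into leukotrienes, had 10 of 20 listed genes tested and 0 called by limma in either organ, with 1 in bone and 0 in lung lines at an unadjusted p under 0.05. ALOX5AP, the activating protein of 5-lipoxygenase, gave -1.23 in bone (SE 0.44, adjusted p = 0.0861) and 0.65 in lung lines (SE 0.44, adjusted p = 0.415). Medians over the 10 were -0.13 and 0.14.

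Of 29 listed genes that induce PTGS2 or control its RNA, 25 were tested. In strong bone lines, where PTGS2 itself did not pass, 5 were lower and 1 was higher, and in strong lung lines 2 were lower. The cytokines IL1A (-1.89, SE 0.48, adjusted p = 0.0221) and IL6 (-1.86, SE 0.54, adjusted p = 0.0396), the interleukin 1 receptor IL1R1 (-1.11, SE 0.34, adjusted p = 0.0497), and the transcription factors CEBPD (-1.06, SE 0.32, adjusted p = 0.0450) and RELA (-0.60, SE 0.17, adjusted p = 0.0383) were lower. EGFR was higher (0.78, SE 0.21, adjusted p = 0.0278), and IL1B gave -1.67 without passing (adjusted p = 0.0720). Each of these 6 calls was lost on leaving out some lines: IL1A without 2293 or 2296 (up to 0.0958), RELA without 2293, 2295, 2296, 1833 or 2268 (up to 0.124) and with its probe sets averaged (0.420), IL1R1 and IL6 without any 1 line other than 2274 (up to 0.125 and 0.139), EGFR without any 1 line other than 2269 (up to 0.0960) and CEBPD without any 1 of the 7 (up to 0.150). Other settings ended the calls of IL1A, IL1R1, IL6 and CEBPD too, with adjusted p-values of up to 0.0777, 0.0649, 0.0530 and 0.0590, the deposited ratios among them each time. In strong lung lines, where PTGS2 was higher, CEBPD was lower (-1.80, SE 0.32, adjusted p = 0.00300), as was ZFP36L2, an RNA-binding protein that promotes decay of AU-rich messages (-1.16, SE 0.22, adjusted p = 0.00478). The ZFP36L2 value had an adjusted p of 0.125 when its probe sets were averaged. The lung minus bone difference of ZFP36L2 also passed in limma (adjusted p = 0.00405), and had an adjusted p of 0.0569 with its probe sets averaged. IL1B gave 1.17 in lung lines (adjusted p = 0.232), and its lung minus bone difference of 2.84 (SE 0.80, adjusted p = 0.0339) passed, a call lost without any 1 of 2296, 1833, 2268, SCP21, 4142, 4175 or 4180, up to 0.0791. Over all 25 the median was -0.16 in bone and -0.27 in lung lines.

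Downstream of EP2 and EP4, 27 of 30 listed genes of cyclic AMP signalling were tested. In strong lung lines AKAP12, a scaffold for protein kinase A, was higher (1.90, SE 0.21, adjusted p = 0.000132), and 4 were lower: the adenylyl cyclases ADCY3 (-1.49, SE 0.25, adjusted p = 0.00231), ADCY7 (-1.07, SE 0.26, adjusted p = 0.0216) and ADCY9 (-0.95, SE 0.17, adjusted p = 0.00365), and PRKACB, a catalytic subunit of protein kinase A (-0.86, SE 0.21, adjusted p = 0.0201). In strong bone lines ADCY7 (-1.25, SE 0.26, adjusted p = 0.00907, at least 1.26-fold lower) and ADCY9 (-0.56, SE 0.17, adjusted p = 0.049997) were lower, and PDE4B, a cyclic AMP phosphodiesterase, was higher (0.88, SE 0.23, adjusted p = 0.0242). ADCY9 lost its bone call without any 1 of the 7 lines (up to 0.171), PDE4B without 2293, 2274 or 2268 (up to 0.122), ADCY7 its lung call without SCP21, SCP26, 4173 or 4175 (up to 0.0691) and PRKACB without SCP6 or 4173 (up to 0.0710). Averaging its probe sets left ADCY9 at an adjusted p of 0.571 in bone and 0.518 in lung lines. With the lines of 1 organ fitted alone PDE4B had an adjusted p of 0.0599 in bone and PRKACB one of 0.0962 in lung lines. The interactions past the threshold were those of AKAP12 (2.41, SE 0.30, adjusted p = 0.000228) and ADCY3 (-2.17, SE 0.35, adjusted p = 0.00160). RAPGEF3 gave 0.92 in bone (adjusted p = 0.237) and NR4A3 -0.79 in lung lines (adjusted p = 0.133) without passing. Medians over the 27 were 0.02 and -0.03.

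HSP90 is the chaperone that PTGES3 assists. Of 20 listed chaperones and co-chaperones 17 were tested, and 3 were higher in strong bone lines: HSP90B1 (1.07, SE 0.25, adjusted p = 0.0153), HSP90AB1 (0.80, SE 0.21, adjusted p = 0.0241) and DNAJB1 (0.71, SE 0.20, adjusted p = 0.0353). HSP90B1 lost its call without 2293 or 2295 (up to 0.0757), and HSP90AB1 and DNAJB1 on leaving out any 1 bone line other than 2269 (up to 0.0965 and 0.117), and DNAJB1 with the bone lines fitted alone (0.0508). In lung lines limma called 0 of 17, with 1 at an unadjusted p under 0.05. FKBP5, which gave 0.82 in bone (adjusted p = 0.193) and -1.21 in lung lines (adjusted p = 0.0695), had an interaction of -2.04 (SE 0.55, adjusted p = 0.0290), lost without any 1 of 2296, 1833, SCP6, 4175 or 4180, up to 0.0699. Over the 17 the median was 0.48 in bone and 0.01 in lung lines.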

How the data were processed

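Per the labels' protocols, RNA from sub-confluent cultures was column-purified and made into biotin-labelled cRNA for Affymetrix arrays. How images were analysed and normalised, and on which build, is not given in the sources used here. All deposited values are linear ratios, and how the authors made them was read from the values: each probe set was divided by 1 number in the 10 arrays of the parental, 1833 ploidy and bone lines and by another in the 9 arrays of the 4175 ploidy and lung lines. Each array also carried a factor of its own, from 0.83 to 1.65. Once the divisors and array factors were taken out, the deposited ratios were whole multiples of 0.1 signal units. This recovered signals for 22198 of 22283 probe sets (99.6%), and for 0% after shuffling. The fixed design allowed for recovered signals, so the test was run on these and the log2 ratios were an alternative. Each array was then scaled to a median of 132 and expressed as log2(signal + 16). The filter kept 16235 probe sets that exceeded the 40th percentile of an array on 2 or more of the 19. The platform annotation gave 1 gene symbol for 19071 probe sets, several for 1043 and none for 2169. Of a gene's kept probe sets, the one of highest mean was used. Where every array of the dimmer group was at or below the percentile, the fold is a bound against that percentile.

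Differences were fitted with limma 3.58.1 in R 4.3.3 (lmFit, eBayes), with Benjamini-Hochberg adjustment over 9541 genes and a threshold of 0.05; the procedure was tested on simulated data. The 14 strong and weak lines shared 1 spread (10 residual degrees of freedom, prior 3.94). The interaction is the lung difference minus the bone difference. The ploidy fit used 4 arrays and a block for line of origin (1833 or 4175), because the labels say that each pair comes from the same line (1 residual degree, prior 10.6). With 1 array per line, p-values of the 14-line fit measure mainly the spread between lines, and the number of arrays limits the precision. In the ploidy fit, standard errors and p-values rest mostly on the prior spread drawn from all genes, and only slightly on the spread between its own pairs. Named genes were all members; from each pathway list those past the threshold, at most the 6 largest per comparison, and the largest that did not pass; and the 5 genes most correlated with PTGS2. The members and lists were chosen with earlier results of these data known. Promoter sequences are from RefSeq (GRCh38.p14), matched by symbol for both genes shown. Alternatives covered values, pseudocount, filter, scaling, probe set choice, fitted lines and leaving out each line.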

Additional observations from a re-analysis of the deposited data

Results flagged for a closer look

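HPGD in strong bone line 2269 lay apart from the other 3 strong bone lines, at 4.39 on the log2(signal + 16) scale (signal 4.93), with a gap to its nearest neighbour of 0.877 of the group's range. Chance flags about 1 in 20 groups, and 14 groups of 4 lines were examined. The lung difference minus the bone difference passed the limma threshold for PTGS2 (2.76), PLA2G4A (2.64), PTGES (1.95) and PTGES3 (0.79).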

How the results depend on the processing

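The number of members called in bone lines (1) was 0 on the deposited ratios and without a filter, 2 with 64 added to the signal, with quantile normalisation and with scaling to a trimmed mean, 3 of 3 tested with the stricter filter (above the 60th percentile on at least 4 arrays), and 0 to 1 on leaving out each line. In lung lines (2) it was 3 with 64 added to the signal, with quantile normalisation and with scaling to a trimmed mean. It was 1 with the stricter filter, under which PTGS2 and PLA2G4A were not tested, and 2 to 3 on leaving out each line. For the interaction (4) it was 2 with the stricter filter and 3 to 4 on leaving out each line. PTGS2 and PLA2G4A kept their lung and interaction calls in all settings that tested them and in all omissions of a line. The lung difference of PTGS1 reversed to 0.0847 with probe sets averaged, and without the 4175 pair the ploidy differences of PTGES3 and PTGER4 reversed to 0.12 and 0.11. The ploidy fit with no replicate block called 0 members, as did the blocked fit, and the pairing changed no member's call. Calls over all genes leaned higher in bone lines (59.0%) but not with scaling to a trimmed mean (46.9%), and in lung lines 38.4% were higher, against 48.9% with quantile normalisation; the cause was not tested. PTGER2, HPGD and, outside the strong lung and ploidy arrays, PLA2G4A lie below the 40th percentile on most arrays, which limits what can be read from their levels.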
